A study of Homo sapiens with 9 samples.

Results

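HOX genes of the 4 human clusters were followed in LAN5 cells after knockdown of MYCN or HAND2. The members were taken by symbol, as HOX followed by a cluster letter from A to D and a position number. Of the 39 human HOX genes, 16 had a row in the table of 25084 genes, 7 of 9 from the HOXC cluster (chromosome 12) and 9 of 9 from the HOXD cluster (chromosome 2). The other 23 (11 HOXA, 10 HOXB, HOXC12 and HOXC13) are not analysed here. LAN5 is an established human neuroblastoma line, a tumour of the sympathetic nervous lineage, with amplified MYCN. Every group received an siRNA (a short RNA that directs degradation of the matching transcript) by Nucleofector electroporation and was kept 72 h in serum-containing growth medium before RNA extraction. The 3 groups of 3 libraries were a control siRNA (siCTR), the MYCN siRNA labelled siMYCN_2 and the HAND2 siRNA labelled siHAND2_3. Each target was thus lowered with a single siRNA, in a single cell line. The labels do not say whether replicates were separate cultures, so p-values measure only the spread between these libraries, which may be technical.

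HOX proteins are transcription factors that bind DNA through a homeodomain. Their genes lie in clusters in which low position numbers are used towards the head and high numbers towards the tail of the embryo, and the combination expressed in a cell records its level along the body axis. They bind DNA together with PBX and MEIS or PKNOX cofactors, and Polycomb and Trithorax complexes keep the clusters silent or active. In spinal motor neurons, HOXC4 to HOXC8, HOXC9 and HOXD10 are known for cervical to brachial, thoracic and lumbar identities. HOXC9 is also known in neuroblastoma for its link to differentiation with retinoic acid.

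The promoters of the HOXD genes whose transcripts moved are shown first, with the neighbouring homeobox gene EVX2, because the direction of change differed between genes of this cluster. Each sequence is the 250 bases before the RefSeq start of the gene (GRCh38.p14), written 5′ to 3′ on the strand of the gene. Capitals mark E-boxes, the letters CANNTG that basic helix-loop-helix proteins such as MYCN and HAND2 are known to bind. The HOXD13 window is chr2:176092471-176092720, HOXD10 is chr2:176116528-176116777, HOXD8 is chr2:176129455-176129704 and HOXD3 is chr2:176157057-176157306, all on the plus strand. The EVX2 window is chr2:176083963-176084212 on the minus strand.
HOXD13: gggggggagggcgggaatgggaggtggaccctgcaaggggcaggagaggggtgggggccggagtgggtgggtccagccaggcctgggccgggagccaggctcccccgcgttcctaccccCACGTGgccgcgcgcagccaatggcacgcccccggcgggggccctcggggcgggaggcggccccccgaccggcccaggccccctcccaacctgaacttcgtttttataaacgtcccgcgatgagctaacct
HOXD10: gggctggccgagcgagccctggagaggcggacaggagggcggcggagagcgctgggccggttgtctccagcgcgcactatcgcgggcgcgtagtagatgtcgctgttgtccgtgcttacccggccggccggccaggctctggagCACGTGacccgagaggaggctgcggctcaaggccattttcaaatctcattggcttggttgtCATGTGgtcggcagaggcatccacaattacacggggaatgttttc
HOXD8: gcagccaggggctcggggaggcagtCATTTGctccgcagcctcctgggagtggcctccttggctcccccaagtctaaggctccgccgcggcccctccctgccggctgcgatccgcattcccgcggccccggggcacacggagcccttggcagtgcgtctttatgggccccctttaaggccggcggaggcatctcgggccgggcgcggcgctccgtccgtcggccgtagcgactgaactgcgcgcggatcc
HOXD3: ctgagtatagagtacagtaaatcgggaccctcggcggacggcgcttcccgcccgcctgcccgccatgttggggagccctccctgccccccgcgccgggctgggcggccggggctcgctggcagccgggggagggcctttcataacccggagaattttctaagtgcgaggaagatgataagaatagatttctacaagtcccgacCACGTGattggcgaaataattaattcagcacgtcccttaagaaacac
EVX2: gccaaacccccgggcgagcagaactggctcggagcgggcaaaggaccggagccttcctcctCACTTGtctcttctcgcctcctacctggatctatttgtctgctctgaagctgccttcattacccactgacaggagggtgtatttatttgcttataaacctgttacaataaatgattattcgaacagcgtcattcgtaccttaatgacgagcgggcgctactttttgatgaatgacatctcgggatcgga

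A promoter window was given for 10 of the 16 members, of which HOXC4 and HOXC5 share 1 window. Read on both strands, CACGTG was present in 5 of the 10 (HOXD1, HOXD3, HOXD10, HOXD11 and HOXD13), against 6.31% of 34788 different windows of the same length over all genes. It is a special case of CANNTG, which 9 of the 10 members and 61.8% of all windows held. CATCTG (or CAGATG on the other strand), another special case, was found in none of the 10 and in 12.2% of all windows. The HOXD13 window was 74% G and C and that of EVX2 50%, beside a median of 58% over all windows. The 5 windows with CACGTG were 59.2% to 74.8% G and C, and the part of base content in their number was not tested. Members with CACGTG in the window did not share a direction: HOXD13 was lower and HOXD10 and HOXD3 were higher in the siHAND2 libraries, as described below. For HOXD3, HOXD10 and HOXD11 the gene model of the table begins upstream of the RefSeq start (at 176136612, 176108790 and 176104216). For these genes the window is thus not the only start that the values cover.

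Values are CPM as the authors deposited them, which are read numbers per gene brought to one common library total. The step between low values put the depth at 21.1 to 32.7 M reads per library, so that 1 CPM stood for 21.1 to 32.7 reads, with a counting error of 17.5% to 21.8%. The knockdown check was that MYCN measured 1842 ± 54.2 CPM in siCTR and 70.0% of that in siMYCN, and HAND2 501 ± 13.7 CPM in siCTR and 54.2% of that in siHAND2 (SD, n = 3). MYCN was also lower in siHAND2, at 49.6% of siCTR. The neuroblast markers DBH (263 ± 18.2 CPM) and NCAM1 were well expressed in siCTR, and TH measured 2.95 ± 0.363 CPM. All 5 Schwann markers in the table and all 4 blood and endothelial markers in it were at or below 1.25 CPM in every library.

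Among the 16 members, most of the signal came from the middle and 5′ part of HOXD. The 9 HOXD genes summed to 150.3 ± 3.25 CPM in siCTR and the 7 HOXC genes to 12.6 ± 0.516 CPM (SD, n = 3). HOXD thus held 92.3 ± 0.148% of the summed CPM of these members, which include no HOXA or HOXB gene. Within HOXD, positions 9 to 13 held 65.8 ± 0.404%, positions 4 and 8 held 29.5 ± 0.647%, and positions 1 and 3 held 4.71 ± 0.357%.

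Between genes, levels were compared per kilobase of annotated exon. HOXD10 was first, at 19.1 ± 0.547 CPM per kb in siCTR, followed by HOXD8 at 15.8 ± 0.103, HOXD11 at 10.0 ± 0.63, HOXD9 at 8.57 ± 0.259 and HOXD13 at 5.58 ± 0.161 CPM per kb. HOXC9 followed at 4.91 ± 0.244, HOXD4 at 2.60 ± 0.181 and HOXD3 at 1.83 ± 0.167 CPM per kb. Each of these 8 lay above the next in all 3 siCTR libraries. HOXC6 (0.678 ± 0.126 CPM per kb) and HOXC8 (0.522 ± 0.13) overlapped each other, and the other 6 members lay below 0.32 CPM per kb in every siCTR library. Some exons are shared, which makes part of this order uncertain: HOXD10 and HOXD11 share 452 exonic bases (18.2% and 21.4% of their lengths), and HOXC4 and HOXC6 share 484 (17.5% and 14%).

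**Figure D1:**
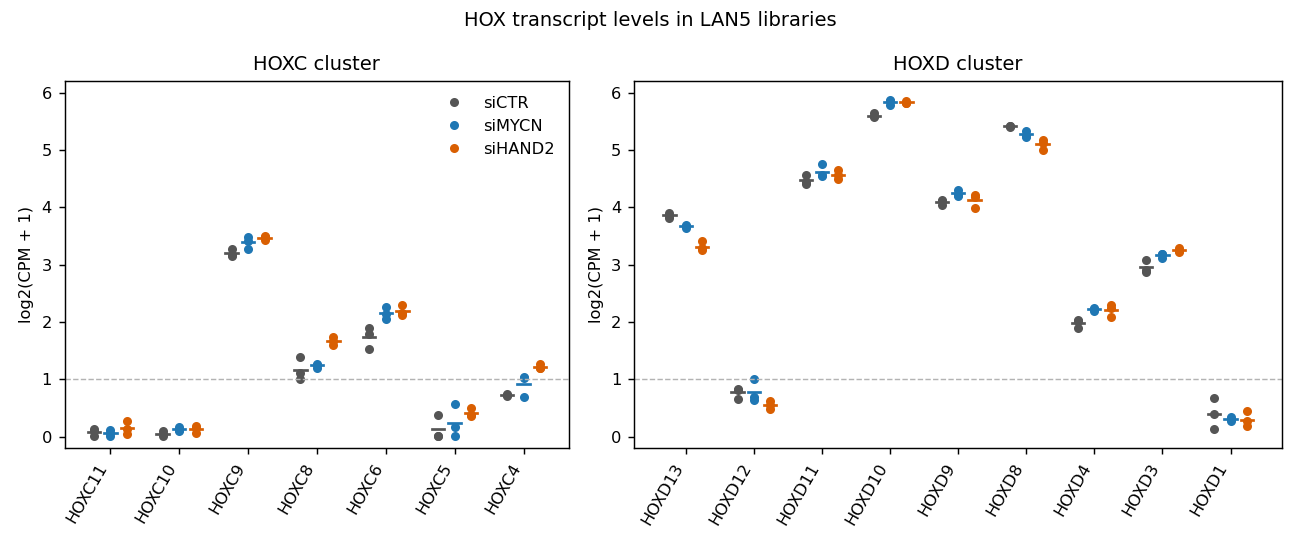
HOX transcript levels by library, as log2(CPM + 1) on the vertical axis, for the 7 HOXC genes (left) and 9 HOXD genes (right) in falling position number. Points are single libraries, short bars group means of 3, and the dashed line marks 1 CPM; HOXD10 and HOXD8 lead the HOXD cluster and HOXC9 the HOXC cluster in all 9 libraries.

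Differences were tested with limma on log2(CPM + 1) over the 14495 genes that reached 1 CPM in 3 or more libraries, and p-values were adjusted over all of them by the Benjamini-Hochberg method. Fold changes are on this log2(CPM + 1) scale, which understates the change of low genes. Of the 16 members, 11 passed this filter (HOXC4, HOXC6, HOXC8, HOXC9, HOXD3, HOXD4, HOXD8, HOXD9, HOXD10, HOXD11 and HOXD13). HOXC4 passed only through knockdown libraries, since none of its siCTR values reached 1 CPM, so counts over the tested members describe them and support nothing. The comparisons of siMYCN and of siHAND2 with siCTR use the same 3 control libraries.

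HAND2 knockdown went with higher values of the tested HOXC transcripts and with changes in both directions inside HOXD. Of the 11 tested members, 8 passed an adjusted p of 0.05 in siHAND2 against siCTR (limma), where 29.9% of all tested genes did. The 6 that rose, where 18.1% of all tested genes did, were HOXC4, HOXC6, HOXC8, HOXC9, HOXD3 and HOXD10. The 2 that fell, where 11.8% of all tested genes did, were HOXD13 and HOXD8. The median log2 fold change of the 11 was 0.23, beside 0.04 over all tested genes. The siHAND2 and siCTR libraries did not overlap for 9 of the 11, beside 42.4% of all tested genes.

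HOXD13 (chromosome 2, 176092721 to 176095944, plus strand; all gene positions are GRCh38), the 5′-most HOX gene of its cluster and known for its part in digit patterning, stood at 13.1, 13.9 and 13.4 CPM in control replicates 1, 2 and 3. With the MYCN siRNA its values were 11.8, 11.8 and 11.4 CPM, and with the HAND2 siRNA 8.48, 8.80 and 9.57 CPM (libraries are given in this order throughout). The 3 groups did not overlap, with siHAND2 lowest and siMYCN between the others. The siHAND2 mean was 66.4% of siCTR, with -0.54 as log2 fold change (standard error, SE, 0.07, adjusted p = 2.12e-05 from limma), and it was also below siMYCN (-0.35, adjusted p = 0.00125).

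The siMYCN value of HOXD13 was 86.7% of siCTR, a log2 fold change of -0.19 (limma, adjusted p = 0.0441). That call lay at the threshold: the change kept its direction, but the call was lost when any single siCTR or siMYCN library, or siHAND2 replicate 2, was left out (-0.17 to -0.21), and with looser filters. No other gene of the table overlaps HOXD13.

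HOXD8 (chromosome 2, 176129694 to 176132695), a central-position gene, had control values of 41.2, 41.7 and 41.4 CPM, siMYCN values of 37, 39.3 and 36.6 CPM, and siHAND2 values of 31.1, 33.6 and 34.9 CPM. As for HOXD13, the 3 groups stood apart in the order siCTR, siMYCN, siHAND2. The siHAND2 mean was 80.2% of siCTR (log2 fold change -0.31, standard error 0.05, limma, adjusted p = 0.00037). Against siMYCN the difference was -0.18 (adjusted p = 0.0241), a call that was lost with 2 groups fitted alone (adjusted p = 0.0537) and without siMYCN replicate 2 (-0.14) or siHAND2 replicate 1 (-0.13). In siMYCN the difference was -0.14 (adjusted p = 0.0599), which missed the threshold here and passed it under 7 of 19 alternatives, among them median-ratio rescaling (-0.19, adjusted p = 0.0109). HOXD-AS2, annotated on the other strand, covers 24.4% of the exonic bases of HOXD8, and the use of strand in counting is not given. No other gene of the table overlaps HOXD8. The HOXD8 values did not stand for whole numbers of reads in every library, so reads could be split with HOXD-AS2. HOXD-AS2 measured 1.20 to 1.99 CPM over the 9 libraries and was not called in any comparison.

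HOXD10 (chromosome 2, 176108790 to 176119937), the most abundant of the 16 members, reached 49.0, 47.0 and 46.4 CPM in the control libraries. Its values were 53.8, 56.5 and 57.6 CPM with siMYCN and 56.8, 55.4 and 55.3 CPM with siHAND2, so both knockdown groups lay above all control libraries and overlapped each other. It rose by 0.23 with the MYCN siRNA (SE 0.05, limma, adjusted p = 0.00108) and by 0.23 with the HAND2 siRNA (SE 0.05, adjusted p = 0.00148). The difference between the knockdowns was -0.0034, with a 95% interval of -0.10 to 0.10. HOXD10 and HOXD11 share 452 exonic bases on the same strand. The values of neither gene stood for whole numbers of reads, so reads could be split between them.

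HOXD3 (chromosome 2, 176136612 to 176173102), at the 3′ side of the cluster, stood at 6.52, 7.45 and 6.28 CPM in control libraries, at 8.11, 7.68 and 8.06 CPM with siMYCN and at 8.44, 8.29 and 8.78 CPM with siHAND2. Every knockdown library lay above every control library. It rose by 0.30 in siHAND2 (SE 0.08, limma, adjusted p = 0.011), and the value in siMYCN was 0.21 (adjusted p = 0.0524), which passed the threshold under 4 of 19 alternatives. HOXD4 lies inside the gene model of HOXD3 on the same strand. The HOXD4 values stood for whole numbers of reads in every library, and those of HOXD3 did not. The noncoding RNA genes HOXD-AS2 and HAGLR, on the other strand, cover 10.25% and 3.73% of the exonic bases of HOXD3, so reads could be split there. HOXD4 itself had means of 2.95 ± 0.206 CPM (control), 3.65 ± 0.0986 CPM (siMYCN) and 3.62 ± 0.352 CPM (siHAND2), as SD over 3 libraries. Its differences from siCTR, 0.24 and 0.22, had adjusted p-values of 0.0729 and 0.103.

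The remaining tested HOXD genes, HOXD9 and HOXD11, passed the threshold in no comparison. HOXD9 ranged from 15.5 to 16.5 CPM in control libraries, from 17.4 to 18.8 with siMYCN and from 14.8 to 17.5 with siHAND2. HOXD11 ranged from 20.1 to 22.7 CPM, from 22.2 to 25.9 and from 21.5 to 24 in the same order. For HOXD9 the 95% interval of the difference from siCTR was 0.0001 to 0.30 in siMYCN and -0.12 to 0.19 in siHAND2, and for HOXD11 it was -0.0018 to 0.30 and -0.05 to 0.24.

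The summed HOXD level hid these opposite movements. It was 150.3 ± 3.25 CPM under the control siRNA, 159 ± 0.908 under siMYCN and 149.96 ± 1.87 under siHAND2, so siCTR and siHAND2 overlapped. The make-up of that sum differed. HOXD13 held 8.70% to 9.14% of it in the siCTR libraries, 7.23% to 7.43% in siMYCN and 5.71% to 6.41% in siHAND2. HOXD8 held 27.2% to 28.2%, 23.1% to 24.6% and 20.9% to 23.4%, and HOXD10 held 30.6% to 32.5%, 33.6% to 36.4% and 36.4% to 38.2%. Such shares within a library do not depend on how libraries are scaled to each other. They are parts of 1 sum, so smaller shares of some genes make those of others larger. The ratio of HOXD13 to HOXD10 was 0.284 ± 0.0147 with the control siRNA, 0.209 ± 0.00986 with siMYCN and 0.16 ± 0.0119 with siHAND2 (SD, n = 3), without overlap between the groups. This ratio was chosen after its values were seen, and reads of HOXD10 could be split with HOXD11.

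**Figure D2:**
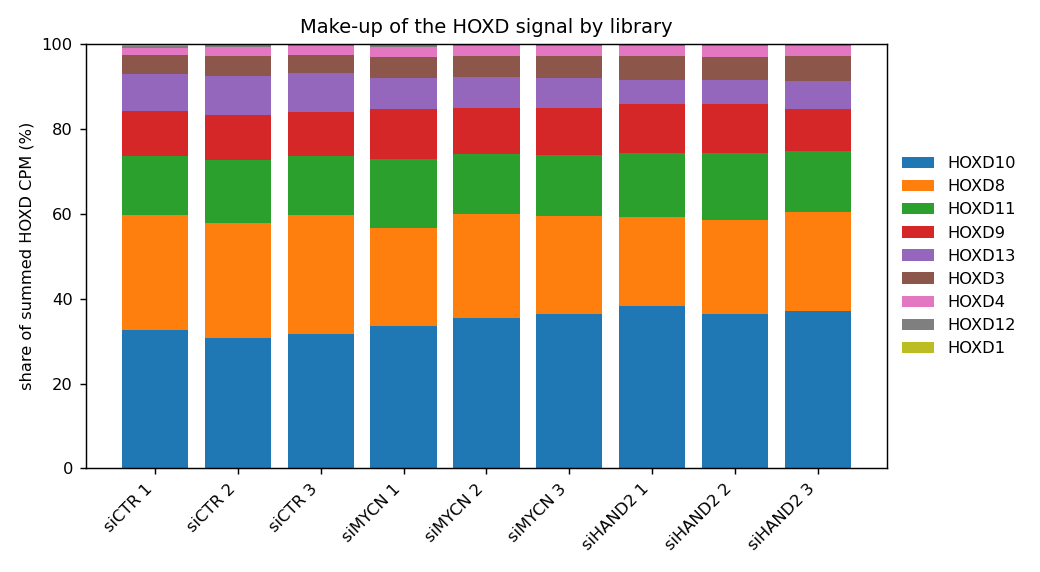
Share of the summed HOXD CPM (vertical axis, %) held by each of the 9 HOXD genes, 1 bar per library. The HOXD13 and HOXD8 segments are smaller and the HOXD10 segment larger in all 6 knockdown libraries than in the 3 siCTR libraries, with HOXD13 at 8.70% to 9.14% in siCTR and 5.71% to 6.41% in siHAND2.

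In HOXC, HOXC6, HOXC8 and HOXC9, which were at or above 1 CPM in every library, rose in siHAND2. HOXC8 (chromosome 12, 54008985 to 54012769) had control values of 1.16, 1.01 and 1.61 CPM, siMYCN values of 1.41, 1.38 and 1.30 CPM, and siHAND2 values of 2.01, 2.19 and 2.34 CPM. The siHAND2 libraries stood above all others, while siCTR and siMYCN overlapped. The siHAND2 mean was 173% of siCTR, and HOXC8 rose by 0.50 on the log2(CPM + 1) scale (SE 0.12, limma, adjusted p = 0.0056). HOXC8 was also higher in siHAND2 than in siMYCN (0.43, adjusted p = 0.016), and that call was lost without siMYCN replicate 3 (0.41) or siHAND2 replicate 3 (0.39).

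HOXC4 (chromosome 12, 54016931 to 54056030) was low throughout, at 0.638, 0.648 and 0.665 CPM in the controls, 0.607, 1.04 and 1.04 CPM with siMYCN and 1.29, 1.29 and 1.41 CPM with siHAND2. Its siHAND2 libraries lay above the other 6, at 204% of the siCTR mean. The difference was 0.50 (SE 0.13), on 236.3 reads over the 9 libraries. Because HOXC4 entered the tested genes through its knockdown libraries, its adjusted p of 0.00821 (limma) is not independent of that filter. With a filter of 0.3 CPM, which all 9 libraries met, the adjusted p was 0.00383. In siMYCN the difference was 0.19 (adjusted p = 0.27), with replicate 1 below and the other 2 above all control libraries. Inside the gene model of HOXC4 the table also holds HOXC5, AC012531.1 and AC012531.2 on the same strand, with means of 0.208, 1.00 and 0.656 CPM, so reads could be split between them.

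HOXC6 (chromosome 12, 53990624 to 54030823) was higher after both knockdowns. The control libraries gave 2.73, 2.43 and 1.87 CPM, the siMYCN libraries 3.13, 3.42 and 3.78 CPM and the siHAND2 libraries 3.47, 3.87 and 3.34 CPM. All 6 knockdown libraries exceeded the highest control library. It rose by 0.41 under siMYCN (SE 0.11, limma, adjusted p = 0.0099) and by 0.45 under siHAND2 (SE 0.11, adjusted p = 0.00674). The siMYCN call was lost without siCTR replicate 3, the lowest library (0.31, adjusted p = 0.0545). The gene model of HOXC6 spans HOXC8 and HOXC9 and part of HOXC4 on the same strand. HOXC8 and HOXC9 stood for whole numbers of reads in every library. HOXC6 and HOXC4 did not. AC012531.1 and AC012531.2 also overlap HOXC6 on the same strand, with means of 1.00 and 0.656 CPM. Reads of HOXC6 could thus be split with HOXC4 or with these genes.

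HOXC9 (chromosome 12, 53994895 to 54003337), the most abundant HOXC transcript, stood at 7.89, 8.65 and 8.02 CPM in control libraries, at 10.1, 8.70 and 9.59 CPM with siMYCN and at 10.3, 10.1 and 9.81 CPM with siHAND2. Both knockdown groups lay above all siCTR libraries, siMYCN replicate 2 by the smallest margin. It rose by 0.27 in siHAND2 (SE 0.08, limma, adjusted p = 0.0143), a call that was lost without siCTR replicate 1 (0.25, adjusted p = 0.0583). In siMYCN the difference was 0.19 (adjusted p = 0.0698).

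The low HOXC genes are sensitive to the constant added before the logarithm. With 0.1 CPM in place of 1 the siHAND2 log2 fold changes were 0.93 for HOXC4, 0.76 for HOXC8 and 0.59 for HOXC6, and with 5 CPM they were 0.16, 0.20 and 0.22, all past the threshold. The summed HOXC level was 12.2 to 13.2 CPM with the control siRNA, 14.7 to 16.3 with siMYCN and 17.4 to 18.0 with siHAND2, with no overlap between the groups. HOXC held the rest of the summed CPM of the 16 members beside HOXD, whose part was 92.1% to 92.3% (control), 90.7% to 91.6% (siMYCN) and 89.4% to 89.5% (siHAND2).

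With the MYCN siRNA, HOXC6 and HOXD10 were higher and HOXD13 was lower. In siMYCN against siCTR 3 of the 11 tested members passed (limma, adjusted p under 0.05), where 35.9% of all tested genes did, so the share of members called was not above that of all genes. Of the members 2 rose, where 24.5% of all tested genes did, and 1 fell, where 11.4% did. Whether the number of calls differs between the knockdowns was not tested. The median of the 11 was 0.19, beside 0.06 over all tested genes. The siMYCN and siCTR libraries did not overlap for 8 of the 11, beside 49.5% of all tested genes. The count of 3 was 1 without siCTR replicate 3, 5 without siHAND2 replicate 3 and 6 with no intensity trend.

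In the direct comparison of siHAND2 with siMYCN, which tests where the 2 knockdowns differ, 3 of the 11 passed (limma, adjusted p under 0.05), where 26.9% of all tested genes did. HOXC8 was higher in siHAND2, where 11.4% of all tested genes were, and HOXD13 and HOXD8 were lower, where 15.5% were. The share of members called was thus close to that of all tested genes. The 2 groups did not overlap for 5 of the 11, beside 38.7% of all tested genes. MYCN itself was lower in siHAND2, at 70.9% of its siMYCN mean, and its part in these differences was not tested.

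**Figure D3:**
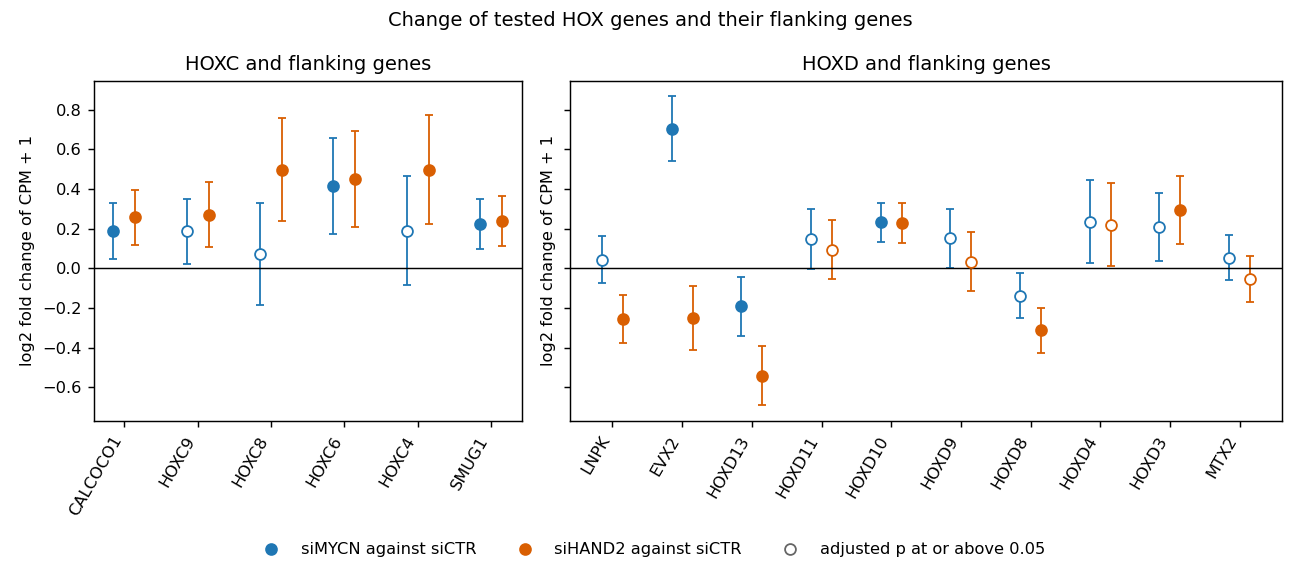
Log2 fold change of CPM + 1 (vertical axis) against siCTR for the 4 tested HOXC genes and 7 tested HOXD genes, in falling position number between their tested flanking genes, with 95% intervals from limma. Filled points passed an adjusted p of 0.05 and open points did not; HOXD13 and HOXD8 lie below 0 for both siRNAs, and EVX2 lies at 0.71 in siMYCN and -0.25 in siHAND2.

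The 5 members below the filter were HOXC5, HOXC10, HOXC11, HOXD1 and HOXD12. HOXC5 was listed at 0 in 3 libraries and reached 0.473 CPM, HOXC10 was listed at 0 in 1 library and reached 0.132 CPM, and HOXC11 was listed at 0 in 2 libraries and reached 0.199 CPM. A value of 0 allows up to 3 reads, which is 0.0917 to 0.142 CPM at these depths, for counting error only. HOXD1 lay between 0.095 and 0.594 CPM, both extremes being siCTR libraries. HOXD12, the neighbour of HOXD13, had control values of 0.764, 0.786 and 0.57 CPM, siMYCN values of 1.01, 0.614 and 0.548 CPM, and siHAND2 values of 0.461, 0.398 and 0.532 CPM. Its siHAND2 libraries lay below the other 6, on 10 to 15 reads each, and no test was made.

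EVX2 (chromosome 2, 176077472 to 176083913, minus strand), a homeobox gene related to even-skipped, lies 8.81 kb from HOXD13 and is read in the other direction. Control libraries gave 9.90, 8.76 and 8.64 CPM, siMYCN libraries 14.4, 16.1 and 15.9 CPM and siHAND2 libraries 7.56, 7.53 and 7.37 CPM. The 3 groups stood apart in the order siHAND2, siCTR, siMYCN, which is not that of HOXD13. EVX2 rose by 0.71 in siMYCN (SE 0.08, limma, adjusted p = 3.37e-06), to 170% of siCTR. It fell by 0.25 in siHAND2 (adjusted p = 0.0214), a call that was lost without siCTR replicate 1 (-0.19, adjusted p = 0.113) and with no filter on low values (adjusted p = 0.0514). The direct comparison of the knockdowns gave -0.95 (adjusted p = 6.85e-08).

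The genes flanking the clusters were taken as a list of 20, of which 15 were in the table and 14 were tested. Of these, 5 rose and 3 fell in siMYCN, beside 24.5% and 11.4% of all tested genes. In siHAND2 4 rose and 4 fell, beside 18.1% and 11.8%, and the medians were 0.05 and -0.05. On the EVX2 side of HOXD, LNPK fell by 0.26 in siHAND2 (limma, adjusted p = 0.00267) and differed by 0.04 in siMYCN (adjusted p = 0.575). On the HOXD1 side, MTX2 differed by -0.05 and 0.05 in siHAND2 and siMYCN (adjusted p = 0.485 and 0.474). Beside HOXC, CALCOCO1 rose by 0.19 in siMYCN and 0.26 in siHAND2 (adjusted p = 0.0345 and 0.00725), and the DNA repair gene SMUG1 by 0.22 and 0.24 (adjusted p = 0.00796 and 0.00634). LNPK, MTX2, CALCOCO1 and SMUG1 were named after their values were seen, as the neighbours nearest to each cluster in the list. The heterochromatin protein gene CBX5, farther along chromosome 12, rose by 0.26 in siHAND2 (adjusted p = 0.000343), and ATP5MC2, a subunit gene of ATP synthase, fell by 0.29 in siMYCN (adjusted p = 9.14e-05). The changes from siCTR named in this paragraph ranged from -0.29 to 0.26. In siHAND2, HOXD10 and HOXC9 changed by 0.23 and 0.27, and HOXD13 and HOXC8 by -0.54 and 0.50. Whether the flanking genes and the HOX genes changed together was not tested.

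Noncoding RNAs of the clusters were a list of 24, of which 5 were in the table and 2 were tested. HAGLR, which overlaps HOXD3 over 9052 bases and HOXD1 over 291 on the other strand, had means of 8.31 ± 0.922 CPM (control), 7.82 ± 0.421 CPM (siMYCN) and 7.75 ± 1.06 CPM (siHAND2). HOXD-AS2 had means of 1.5 ± 0.366, 1.54 ± 0.295 and 1.81 ± 0.221 CPM in the same order (SD, n = 3). Neither passed the threshold in any comparison with limma, nor an unadjusted p of 0.05 (0.213 to 0.867 over both genes and the 3 comparisons). HOTAIR, HOXC-AS1 and HAGLROS stayed below 0.53 CPM in every library.

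Among the cofactors that bind DNA with HOX proteins, all 9 genes of the list were tested. In siMYCN 5 rose and none fell, and in siHAND2 5 rose and none fell, with medians of 0.12 and 0.15. Over all tested genes 24.5% rose and 11.4% fell in siMYCN, and 18.1% rose and 11.8% fell in siHAND2. MEIS3 stood at 56.9, 58.5 and 56.8 CPM in control libraries, at 81.2, 74.4 and 73.7 CPM with siMYCN and at 97.1, 95.7 and 82.6 CPM with siHAND2. The 3 groups did not overlap. MEIS3 rose by 0.41 in siMYCN and 0.66 in siHAND2 (limma, adjusted p = 6.36e-05 and 2.98e-07), and the 2 knockdowns differed by 0.26 (adjusted p = 0.00356).

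MEIS1 rose from 198 ± 8.32 CPM in siCTR to 236 ± 2.10 CPM in siHAND2 (SD, 3 libraries each), a log2 difference of 0.26 (limma, adjusted p = 0.000142). PKNOX1 and PKNOX2 differed from siCTR by -0.05 and -0.05 in siHAND2 (adjusted p = 0.601 and 0.79).

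Of 18 regulators that silence or activate HOX clusters, other than the PRC2 complex, 16 were tested. In siMYCN 5 rose, beside 24.5% of all tested genes, in siHAND2 6 rose, beside 18.1%, and none fell in either, with medians of 0.08 and 0.15. CDX1, 1 of the 6, passed the filter only through its siHAND2 libraries, so this count describes the list and supports nothing. BMI1, a core subunit of Polycomb repressive complex PRC1, had control values of 56.4, 57.6 and 57.8 CPM, siMYCN values of 62.4, 62.2 and 66.1 CPM, and siHAND2 values of 73, 73.9 and 80.7 CPM. It rose by 0.40 in siHAND2 (SE 0.05, limma, adjusted p = 1.16e-05). The PRC1 chromobox gene CBX2 rose in siHAND2 by 0.33 (adjusted p = 0.000314). In siMYCN, MEIS1, BMI1 and CBX2 rose by 0.12, 0.15 and 0.17 (adjusted p = 0.0259, 0.0267 and 0.0279). These 3 calls were lost after median-ratio rescaling (0.0639 to 0.11) and quantile normalization (0.0539 to 0.10), and with no intensity trend. They were also lost without siCTR replicate 2 (0.11 to 0.17), siCTR replicate 3 (0.0954 to 0.17) or siMYCN replicate 3 (0.12 to 0.17). BMI1 and CBX2 lost theirs without siCTR replicate 1 (0.14 and 0.16), and MEIS1 and CBX2 without siMYCN replicate 1 (0.11 and 0.14).

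**Figure D4:**
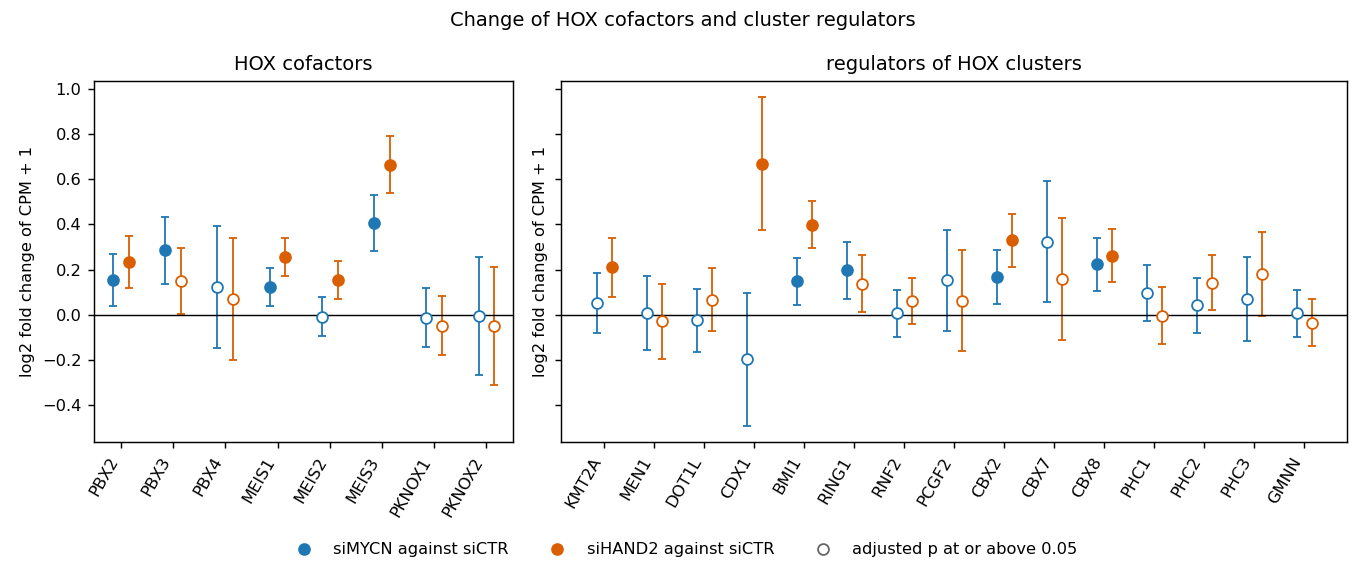
Log2 fold change of CPM + 1 (vertical axis) against siCTR for tested HOX cofactors (left) and regulators of HOX clusters (right), with 95% intervals from limma. Filled points passed an adjusted p of 0.05; MEIS3 lies at 0.66 and BMI1 at 0.40 in siHAND2, and no gene shown fell past the threshold.

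Markers of other states moved with the knockdowns. Of the 10 stromal markers, 8 were tested, of which 6 rose in siMYCN, beside 24.5% of all tested genes, and 7 in siHAND2, beside 18.1%. DCN, called in both, passed the filter only through knockdown libraries (0.374 to 0.522 CPM in siCTR), so these counts are a description. The summed level of the 10 was 327 to 345 CPM with the control siRNA, 403 to 427 with siMYCN and 723 to 820 with siHAND2. COL1A1 stayed below 0.94 CPM in every library. POSTN was listed at 0 in 4 of 6 siCTR and siMYCN libraries and reached 0.319 to 0.532 CPM in siHAND2. Of the 8 neuroblast markers, 7 rose in siMYCN, beside the same 24.5%, and in siHAND2 TH and DBH fell and STMN2 rose. DBH was at 49.4% of siCTR in siHAND2 and 131% in siMYCN. The part of these shifts in the HOX values was not tested, and in such bulk RNA fewer cells expressing a gene and less RNA per cell cannot be told apart.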

How the data were processed

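RNA-seq of total RNA was available for 9 libraries, 3 per siRNA. The authors deposited CPM values per gene, in which every value includes a constant of 0.0001, so that columns sum to 1000002.4 to 1000002.6. The submitters' processing notes name STAR 2.5.1, Partek, hg19 and GRCh37. The table's intervals overlap those of GRCh38.p14 for 16 of 16 HOX members and those of GRCh37 for 0, so positions are given as GRCh38, counted from 1. The counting rule, its use of strand and the annotation are not given in the sources used here. No gene of the table is at 0 in every library.

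Depth was read from the smallest step between low values. Only 79.3% to 80.8% of the lowest values (20 steps or fewer) lay within 0.02 of a whole number of steps, so no count model was used. From the deposited CPM, log2(CPM + 1) was fitted across all genes with limma 3.58.1 in R 4.3.3 (1 mean per group, all 9 libraries, intensity trend, no replicate block, two-sided, adjusted over 14495 genes). The fit was run on simulated counts in which 100 genes changed by 0.5 and 100 by 1 (log2) in siMYCN. It called 80% and 99% of them, and 0.0995% of unchanged genes. The simulated spread was a set value, not taken from these libraries. Smaller changes, such as most of those of the HOX genes, were not simulated. Exon lengths came from GENCODE release 44 on GRCh37, by symbol, for all 16 members, and promoter sequences from RefSeq.

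Members called in any comparison, or highest in their cluster, are given in every library, and of each list at most 3 genes with the smallest p (some list genes are not reported here). The members, lists and rule were chosen with earlier results of these data known. As alternatives, the added constant was 0.1 or 5, the filter was dropped or set at 0.3 CPM, libraries were rescaled by median ratios or quantile-normalized, 2 groups were fitted alone, the intensity trend was removed, a replicate block or precision weights were added, and each library was left out.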

Additional observations from a re-analysis of the deposited data

How the results depend on the processing

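In siHAND2 against siCTR the number of HOX genes called was 7 to 9 over 19 alternatives, beside 8, and in siHAND2 against siMYCN it was 2 to 4, beside 3. In siMYCN against siCTR it was 6 with no intensity trend and 1 to 5 with single libraries left out, beside 3, and the cause was not tested. Rescaling changed the split of all calls: the share higher in siMYCN went from 68.3% to 51.2% (median-ratio) and 49.3% (quantile), and in siHAND2 from 60.6% to 47.1% and 47.8%. The directions of the 8 HOX calls in siHAND2 held under all 19 alternatives. Values that changed sign were small and never called: after median-ratio rescaling HOXD9 in siHAND2 (-0.0034), HOXD-AS2 in siMYCN (-0.008) and HOXD10 between the knockdowns (0.0135); after quantile normalization HOXD9 (-0.0033), HOXD-AS2 (-0.0371), HOXD10 (0.0258) and HAGLR between the knockdowns (0.0018). With single libraries left out, the range crossed 0 in siMYCN for HOXC8 (-0.008 to 0.181) and HOXD-AS2 (-0.0663 to 0.141), in siHAND2 for HOXD9 (-0.008 to 0.108), and between the knockdowns for HOXC6 (-0.0132 to 0.0931), HOXD4 (-0.0595 to 0.0482), HOXD10 (-0.0306 to 0.017), HOXD11 (-0.0931 to 0.0135) and HAGLR (-0.102 to 0.0731).

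Replicate numbers were not stated to pair libraries. Deviations of same-numbered libraries correlated at -0.04 to 0.305 (6 of 9 pairs over 0.1), and 7 of 9 libraries correlated best with their own number. With the replicate block, 4 HOX genes were called in siMYCN, 8 in siHAND2 and 3 between the knockdowns, and 5895, 5089 and 4689 of all genes. A single library at 1 CPM has a counting error of 17.5% to 21.8%, which limits HOXC4, HOXC8 and the 5 members below the filter.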

Other observations

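CDX1, a caudal-type homeobox gene whose family is known for activating HOX clusters in the embryo, was named after its values were seen. Its control values were 0.489, 0.487 and 0.237 CPM, its siMYCN values 0.121, 0.345 and 0.206 CPM, and its siHAND2 values 1.35, 1.19 and 1.13 CPM. Its siHAND2 libraries lay above the other 6, and it passed the filter only through them. The log2 difference from siCTR was 0.67 in siHAND2 and -0.20 in siMYCN. CDX1 was fitted with the other genes and is counted among the regulators that rose in siHAND2. Its p-value is not given, because its entry to the fit rested on the same siHAND2 values. BMI1, KMT2A, CBX2 and CBX8 were also among the regulators called in siHAND2.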
